A study of Mus musculus with 6 samples.

Results

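The STAT factors and the feedback genes of the SOCS family were compared between T cells of the mouse spleen sorted as CD4+Lrig1+ or as CD4+Lrig1-. The genes were taken by symbol, with the counts of all their listed transcripts summed: the STAT genes *Stat3*, *Stat4*, *Stat5a*, *Stat5b* and *Stat6*, and the feedback genes *Socs1*, *Socs2*, *Socs3* and *Cish*. These are 9 of the 45777 genes listed, and all 9 passed the filter on low counts. The cells were isolated by flow cytometry, on CD4 and surface Lrig1, from normal female C57BL/6 mice (an inbred laboratory strain) at 7 weeks of age, and no transgene or deletion is given for them. The labels give 3 samples per group. Of these, 2 libraries per group were analysed here. They come as 2 pairs, set 1 and set 2, each deposited in its own table with a CD4+Lrig1+ and a CD4+Lrig1- library. Columns that could not be tied to a group by name were not used here. The labels do not tie the libraries to separate or to pooled mice, and the study describes its samples in general as biologically independent. The p-values of the calls below measure how far the group difference varied between the 2 sets, and not the spread of libraries within a group. Each gene's variance was also drawn towards that of other genes.

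STAT proteins are transcription factors that wait in the cytoplasm. When a cytokine joins its receptor chains, JAK kinases bound to those chains phosphorylate a STAT, which pairs with another, enters the nucleus and binds DNA. SOCS proteins and CIS, the product of *Cish*, are induced by these same STATs and bind the receptor or the kinase to damp the signal. In CD4+ T cells STAT5 carries IL-2 and IL-7 signals and is needed for regulatory T cells, STAT6 carries IL-4, STAT4 carries IL-12, and STAT3 carries IL-6 and IL-21.

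The preferred DNA letters of most STATs are TTCNNNGAA, where N is any base, and this motif reads the same on both strands. It was searched in RefSeq promoter windows of GRCm38.p6 that run from 250 bases before to 50 bases after a gene's start. A window was given for 8 of the 9 genes, and *Socs2* had none. TTCNNNGAA was found in the windows of *Cish* and *Socs3* and in 8.30% of all 32851 windows. *Cish* held 2 matches, and 0.457% of all windows held 2 or more. The wider form that STAT6 prefers, with 4 bases between TTC and GAA, was found in no window of the 8 genes and in 6.95% of all windows. A match is a description of the letters and was not tested as a site. The stretches that hold the matches are shown because the 2 genes differed in their values below, with the motif in capitals. The *Cish* stretch is the first 30 bases from the annotated start, at chr9:107296659-107296688 on the plus strand, and the *Socs3* stretch is the 250 bases before the start, at chr11:117969367-117969616 on the minus strand.
Cish: TTCCTGGAAagTTCTTGGAAatctgtcaaa
Socs3: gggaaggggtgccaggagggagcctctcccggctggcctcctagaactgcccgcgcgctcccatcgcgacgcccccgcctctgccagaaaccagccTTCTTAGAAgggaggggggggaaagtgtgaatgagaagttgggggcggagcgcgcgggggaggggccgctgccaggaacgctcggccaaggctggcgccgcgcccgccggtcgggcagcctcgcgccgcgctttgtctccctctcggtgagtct

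The libraries held 44865070 to 59977951 estimated counts. *Lrig1*, on which the cells were sorted, had 221 CPM (counts scaled to library size and normalized by the TMM method) in CD4+Lrig1+ against 75.4 in CD4+Lrig1- T cells in set 1, and 129 against 36.7 in set 2. All 7 T cell markers were detected in every library, and 1 of them, *Cd5*, was called higher (539 against 416 and 688 against 519 CPM). The summed level of 5 regulatory T cell markers, among them *Foxp3* and *Il2ra*, was 2020 against 207 CPM in set 1 and 1717 against 140 in set 2. The calls below move with these markers, whose part in the results was not tested. Bulk RNA cannot tell more cells of a type from more RNA per cell. The 9 B cell markers summed to 91.7 against 73.0 CPM in set 1 and 366 against 717 in set 2, and the 7 NK cell markers to 56.8 against 81.8 and 126 against 225. Neither list was higher in sum in CD4+Lrig1+ T cells of both sets, and no marker on them was at 0 in any library. Of the B cell markers 0 were called higher and 3 lower. Of the NK cell markers 1 was called higher, *Eomes* (24.1 against 4.20 and 41.3 against 9.18 CPM), and 5 were called lower. The 2 CD8 markers summed to 14.1 against 19.5 and 51.6 against 97.3 CPM, and the 4 plasmacytoid dendritic cell markers to 85.7 against 77.7 and 157 against 230. The 3 plasma cell markers summed to 4.56 against 4.53 and 54.9 against 109 CPM, and the 6 erythroid markers to 9.27 against 9.34 and 84.6 against 96.1. Each of these lists was higher in sum in set 2, in both groups, with 0 markers called higher. The 10 myeloid markers were higher in both sets in sum (73.0 against 62.3 and 320 against 276 CPM), with 3 of them called higher, *C1qa*, *C1qb* and *Csf1r* (13.2 against 6.39 and 65.9 against 32.2 CPM), and 1 lower, *Itgam*. Their part in the calls below was not tested either. The 8 immediate early genes, which respond to handling, summed to 1577 against 1478 CPM in set 1 and 1230 against 1263 in set 2, but 2 of them, *Dusp1* (283 against 143 and 237 against 92.3 CPM) and *Fosb*, were called higher and 2, *Jun* and *Ier2*, lower. *Cd5* and the NK cell, myeloid and immediate early genes named here were chosen after their values were seen.

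In CD4+Lrig1+ T cells 5 of the 9 genes were higher and 0 were lower, with an adjusted p under 0.05. They were *Cish*, *Socs2*, *Socs1*, *Stat5a* and *Stat4*, in order of their adjusted p. The calls are from edgeR's quasi-likelihood test with a term for the set, which compares the groups within each set, with Benjamini-Hochberg adjustment over the 16123 genes tested. That test called 27.4% of all genes, 14.6% higher and 12.8% lower. By direction alone 7 of the 9 genes were higher in both sets, as were 36.5% of all genes. The median log2 fold change was 0.33 over the 9 genes and -0.04 over all genes tested. The model leaves 1 residual degree of freedom, and without the term for the set it called 0 of the 9 genes and 0.0% of all genes. Without it 2 of the 9, *Cish* and *Socs2*, had an unadjusted p under 0.05, as had 674 higher and 227 lower genes in all. In single genes an exact permutation test of 2 libraries against 2 that ignores the sets, unlike the calls above, cannot give a p below 0.333.

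**Figure D1:**
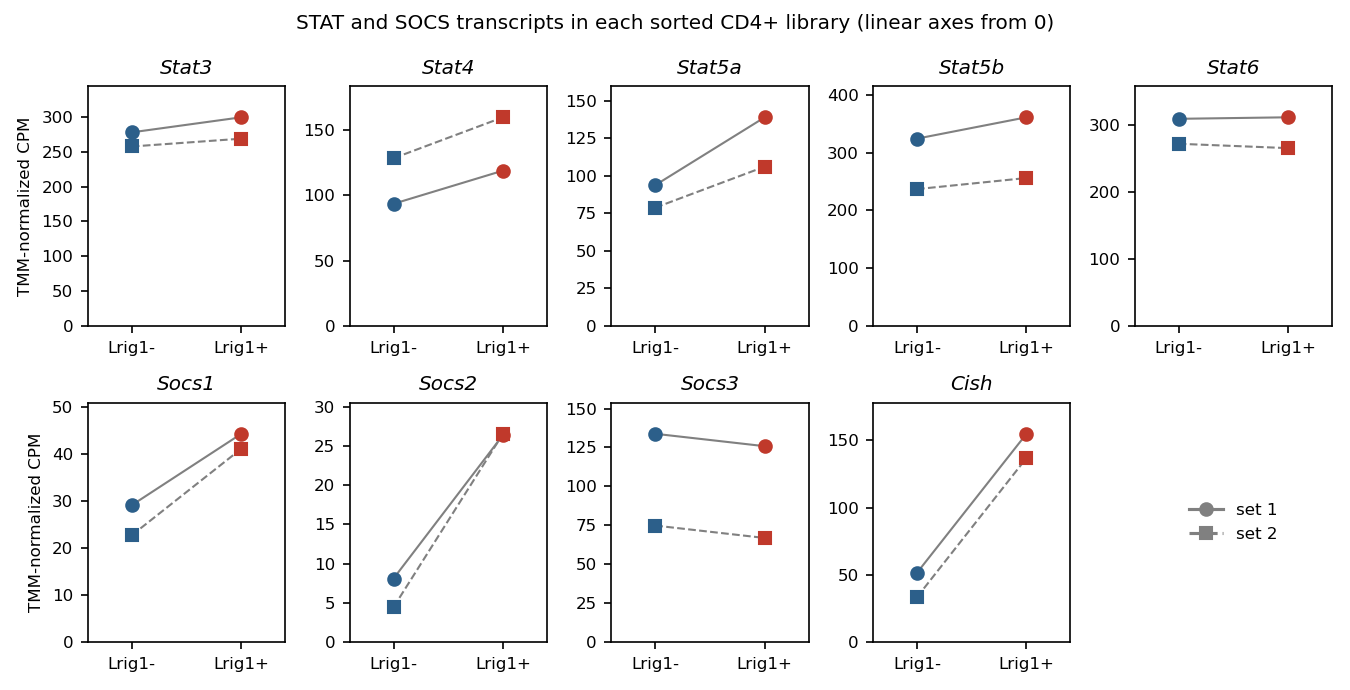
TMM-normalized CPM (linear axes from 0) of the 9 genes in each library, with CD4+Lrig1- T cells in blue, CD4+Lrig1+ T cells in red, and lines that join the libraries of set 1 (solid, circles) and of set 2 (dashed, squares). *Cish* and *Socs2* rose steeply in both sets, from 51.6 to 155 and from 8.12 to 26.4 CPM in set 1, whereas the *Stat3*, *Stat6* and *Socs3* lines are close to level.

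*Cish* and *Socs2* showed the largest differences. *Cish* (gene ID 12700, chr9:107296659-107302784 of GRCm38) encodes CIS, which binds activated cytokine receptors and limits STAT5 signals. It had 155 CPM in CD4+Lrig1+ against 51.6 in CD4+Lrig1- T cells in set 1, and 137 against 33.5 in set 2. Both CD4+Lrig1+ libraries lay far above both CD4+Lrig1- libraries. The fitted rise was 3.49-fold (95% interval 2.92 to 4.18), a log2 fold change of 1.80 (standard error 0.11, adjusted p = 5.45e-05, edgeR). It was 2.996-fold in set 1 and 4.07-fold in set 2, and the difference between the sets has no test, since each holds 1 library per group.

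*Socs2* (gene ID 216233, chr10:95383903-95417321) encodes a feedback protein best known for restraining growth hormone signals through STAT5. It had 26.4 against 8.12 CPM in set 1 and 26.5 against 4.48 CPM in set 2, from 1372 against 389 and 1524 against 242 estimated counts. The CD4+Lrig1+ libraries of the sets were nearly equal, and the CD4+Lrig1- libraries were low in both. The rise was 4.34-fold (95% interval 3.15 to 5.99), with an adjusted p = 3.29e-04 by edgeR. By log2 fold change *Socs2* stood at rank 671 and *Cish* at rank 841 of the 16123 genes.

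Across the 4 libraries, and among 8831 genes with a mean of at least 10 CPM, *Cish* was itself the gene closest in pattern to *Socs2*, with a root mean square difference of 0.19 between their log2 CPM values, each centred on its own mean. *Chst2* (0.21) and *Osbpl3* (0.23) came next. With 4 libraries that share 2 sets, this likeness is a description only.

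*Socs1* (gene ID 12703, chr16:10783808-10785536) encodes an inhibitor of JAK kinases that restrains interferon-γ and IL-2 signals and keeps regulatory T cells stable. Its level was 44.4 against 29.2 CPM in set 1 and 41.2 against 22.8 in set 2. Both CD4+Lrig1+ libraries were above both CD4+Lrig1- libraries, by less than for *Cish* or *Socs2*. The rise was 1.66-fold (95% interval 1.41 to 1.94, adjusted p = 0.00172, edgeR).

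*Socs3* (gene ID 12702, chr11:117966079-117970336) encodes the inhibitor that binds the gp130 receptor chain and limits IL-6 and STAT3 signals. It did not follow the other 3 feedback genes. It had 126 against 134 CPM in set 1 and 67.0 against 74.9 CPM in set 2. The groups overlapped over the sets, and *Socs3* was the only one of the 9 genes to be lower than in CD4+Lrig1- T cells in each set, as were 41.3% of all genes. The log2 fold change was -0.12 (95% interval -0.29 to 0.04, adjusted p = 0.234, edgeR). In this fit, with the term for the set, the interval holds no rise above 1.03-fold. That bound depends on the term, without which the standard error was 0.51 in place of 0.07. The sets differed more than the groups, with a log2 difference of set 2 from set 1 of -0.91 in the CD4+Lrig1+ libraries and -0.84 in the CD4+Lrig1- libraries. By the same measure as above the genes closest to *Socs3* were *Nkiras1* (0.0071), *Zfp451* (0.017) and *2810021J22Rik* (0.017), and their pattern too is mostly the step between the sets.

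**Figure D2:**
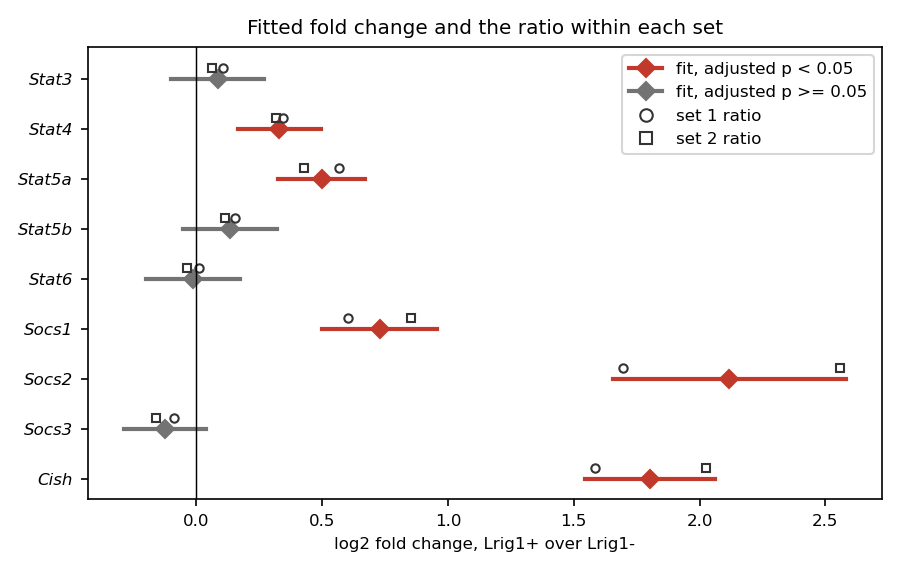
Log2 fold change of CD4+Lrig1+ over CD4+Lrig1- T cells for the 9 genes: diamonds and bars are the fit with its 95% interval (red where the adjusted p is under 0.05), and open circles and squares are the ratios within set 1 and set 2. *Socs2* (2.12) and *Cish* (1.80) stand apart from *Socs1* (0.73), *Stat5a* (0.50) and *Stat4* (0.33), and the bars of the other 4 genes cross 0.

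Among the STAT genes, *Stat5a* and *Stat4* rose and *Stat3*, *Stat5b* and *Stat6* did not pass the test. *Stat5a* (gene ID 20850, chr11:100859351-100885169) encodes 1 of the 2 STAT5 proteins. It had 139 against 93.8 CPM in set 1 and 106 against 78.8 in set 2. Both CD4+Lrig1+ libraries were above both CD4+Lrig1- libraries, as for *Cish*, *Socs1* and *Socs2*. These 4 genes were the ones of the 9 with such a separation upwards, which 14.3% of all genes showed. The rise of *Stat5a* was 1.41-fold (95% interval 1.25 to 1.59, adjusted p = 0.00270, edgeR).

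*Stat5b* (gene ID 20851, chr11:100780731-100859004) encodes the other STAT5 protein and lies beside *Stat5a* on chromosome 11. It had 361 against 324 CPM in set 1 and 256 against 237 in set 2. It was higher in CD4+Lrig1+ T cells within each set, but the step between the sets was larger and the groups overlapped. The log2 fold change was 0.13 (95% interval -0.05 to 0.32, adjusted p = 0.261, edgeR). The ratio of *Stat5a* to *Stat5b* in FPKM (fragments scaled to transcript length and library size, which allows genes to be compared per length) was 0.497 in CD4+Lrig1+ against 0.381 in CD4+Lrig1- T cells in set 1, and 0.541 against 0.424 in set 2. *Stat5b* was thus the more abundant of the pair per length in every library, and the ratio was higher in CD4+Lrig1+ T cells of both sets. These paralogs resemble each other closely, so reads could have been shared between them in the authors' counting.

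*Stat4* (gene ID 20849, chr1:51987106-52107189) encodes the factor of IL-12 signals and Th1 cells. It had 119 against 93.4 CPM in set 1 and 159 against 128 in set 2. The rise was of like size in each set, 1.27-fold and 1.24-fold, while the groups overlapped over the sets because set 2 was higher in both groups. The fitted rise was 1.26-fold (95% interval 1.12 to 1.41, adjusted p = 0.0129, edgeR). With no filter on low counts the adjusted p from edgeR was 0.0582 and the call was lost.

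*Stat3* (gene ID 20848, chr11:100886806-100939594), the factor of IL-6, IL-21 and IL-10 signals, had 299 against 278 CPM in set 1 and 269 against 257 in set 2. Its log2 fold change was 0.08 (95% interval -0.10 to 0.27, adjusted p = 0.480, edgeR). *Stat6* (gene ID 20852, chr10:127642955-127660987), the factor of IL-4 signals, had 311 against 309 CPM in set 1 and 265 against 271 in set 2. It was the one gene of the 9 whose direction differed between the sets, and its log2 fold change was -0.01 (95% interval -0.20 to 0.17, adjusted p = 0.935, edgeR). In this fit, with the term for the set, the intervals hold no rise of *Stat3* above 1.21-fold and none of *Stat6* above 1.13-fold. They reach down to 0.93-fold for *Stat3* and 0.87-fold for *Stat6*. These bounds depend on the term, without which the standard errors were 0.32 for *Stat3* and 0.33 for *Stat6*, in place of 0.08. *Stat6* overlaps *Nab2* in the listed loci, and the use of strand in the authors' counting was not given in the sources used here.

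Per length, *Cish* took a larger share of the SOCS family in CD4+Lrig1+ T cells and *Socs3* a smaller one. Over 8 genes the summed SOCS level was 169 FPKM in CD4+Lrig1+ against 118 in CD4+Lrig1- T cells in set 1, and 121 against 66.0 FPKM in set 2. In both CD4+Lrig1- libraries *Socs3* ranked first, *Socs1* second and *Socs2* last of the 8, and *Cish* held the third place. In both CD4+Lrig1+ libraries *Cish* ranked first. Its share of the summed FPKM was 29.4% against 14.0% in set 1 and 34.2% against 14.4% in set 2. The share of *Socs3* was 23.9% against 38.1% in set 1 and 18.0% against 34.9% in set 2. The FPKM of *Cish* over that of *Socs3* therefore crossed 1, at 1.23 against 0.368 in set 1 and 1.90 against 0.413 in set 2. These shares carry no test. Of the SOCS genes outside the 9, *Socs5* was called higher (44.0 against 23.4 and 32.9 against 21.1 CPM, adjusted p = 0.00152, edgeR), and *Socs4*, *Socs6* and *Socs7* did not pass the test.

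**Figure D3:**
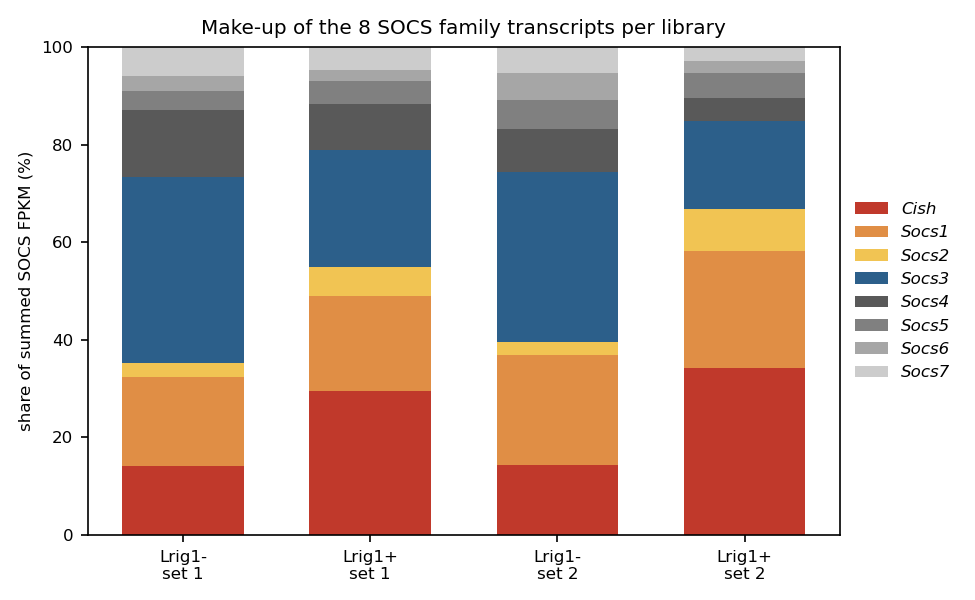
Share (%) of each of 8 SOCS family genes in their summed FPKM, 1 bar per library. The red *Cish* block goes from 14.0% to 29.4% in set 1 and from 14.4% to 34.2% in set 2, while the dark blue *Socs3* block shrinks from 38.1% to 23.9% and from 34.9% to 18.0%.

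The summed level of the 6 STAT genes described here, the 5 above and *Stat2*, was 308 FPKM in CD4+Lrig1+ against 274 in CD4+Lrig1- T cells in set 1 and 246 against 210.3 in set 2. Among them *Stat6* had the highest level in every library (60.3 to 78.9 FPKM). *Stat3* (48.1 to 63.9) and *Stat5b* (39.9 to 70.1) changed places between the sets, so their order does not stand out from the spread. *Stat4* (29.998 to 48.2) overlapped *Stat5b* in range, and *Stat5a* (16.9 to 34.8) was below *Stat4* in every library. *Stat2*, which acts in type I interferon signals, was last (8.80 to 21.7 FPKM), and it did not pass edgeR's test (log2 fold change 0.00074, adjusted p = 0.996).

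The sum over transcripts, which fixes the gene values above, hides unequal splits that the authors' estimates give between transcripts with shared exons. *Stat4* was carried by transcript variant 1 in every library (96.5% to 98.2% of its counts), and *Cish* by its variant 1 (70.6% to 87.8%). For *Socs3* the first listed transcript took 58.1% of the counts in CD4+Lrig1+ against 78.4% in CD4+Lrig1- T cells in set 1, and 84.3% against 97.0% in set 2. The rest went to the predicted variants X1 and X2, whose loci end farther upstream, at 117970336. So the level *Socs3* total was made up of fewer counts on its first transcript (3804 against 5022, and 3243 against 3925) and more on the predicted ones. For *Stat5b*, variant 2 took 89.3% against 83.6% in set 1 and 87.8% against 73.1% in set 2. For *Stat3*, predicted variant X1 took 7.34% against 14.7% and 2.70% against 22.1%. These shifts had the same direction in both sets. For other genes the direction differed between the sets. For *Stat5a*, predicted variant X1 took 63.2% against 40.7% in set 1 but 48.6% against 92.4% in set 2. For *Stat6*, predicted variant X1 took 49.8% against 50.7% and then 41.4% against 21.7%. Variant 1 also turned for *Cish* (70.6% against 71.1%, then 87.8% against 82.6%) and *Socs2* (53.3% against 49.9%, then 88.3% against 89.7%). For *Stat4* it took 96.5% against 98.2% and then 97.4% against 96.5%. *Socs2* has 18 listed transcripts, of which 3 had counts in every library. Transcript shares were not tested, since the estimates depend on how reads of shared exons were assigned.

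Other genes of the pathway were counted in lists by role, 82 of 88 listed genes being tested, of which 31 were called higher and 18 lower in CD4+Lrig1+ T cells by the same test (14.6% and 12.8% of all genes). Their median log2 fold change was 0.06 against -0.04 over all genes tested. Without the term for the set 0 of the 82 were called. Of the 4 kinases, *Jak3*, the kinase bound to the common γ chain, was higher (361 against 229 CPM in set 1 and 168 against 102 in set 2, adjusted p = 7.40e-04, edgeR). *Tyk2* was higher too (log2 fold change 0.31, adjusted p = 0.0195), *Jak1* was lower (897 against 1095 CPM and 847 against 1142, adjusted p = 0.0397), and *Jak2* did not pass. With no filter on low counts the calls of *Tyk2* (adjusted p = 0.0787) and *Jak1* (0.108) were lost in edgeR.

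Of 23 cytokine receptor genes 9 were higher and 7 lower, beside 14.6% and 12.8% of all genes. Of the chains of the IL-2 receptor, *Il2ra*, which raises the affinity for IL-2 and does not itself signal, was higher (log2 fold change 4.05). *Il2rb*, a signalling chain, was higher too (1030 against 287 CPM in set 1 and 1060 against 246 in set 2). The other signalling chain, *Il2rg*, did not pass the test (log2 fold change -0.14, adjusted p = 0.352, edgeR), whereas DESeq2's Wald test called it lower (-0.16, adjusted p = 0.0472). *Il7r*, the receptor chain for IL-7, was lower, with 326 against 606 CPM in set 1 and 190 against 579 in set 2. *Il9r* was higher (45.1 against 10.2 and 26.1 against 7.30 CPM). The IL-12 receptor chains moved in opposite directions. *Il12rb2* was lower at low levels (1.67 against 11.7 and 1.85 against 9.29 CPM), and *Il12rb1*, named after its values were seen, was higher (52.3 against 25.2 and 43.1 against 15.0 CPM, adjusted p = 3.94e-04, edgeR). *Csf2rb* (log2 fold change -1.82) was lower too. The IL-4 and IL-6 receptor chains *Il4ra* (log2 fold change -0.48) and *Il6ra* (-0.62) were lower, calls that were lost with no filter on low counts (adjusted p = 0.0668 and 0.0568, edgeR), while *Il6st* (0.01), *Il21r* (0.07) and *Ifngr1* (0.10) did not pass.

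Of 16 cytokine genes 10 were tested, and 4 were higher and 0 lower, beside 14.6% and 12.8% of all genes. *Lif* (9.79 against 1.002 and 7.10 against 0.463 CPM) and *Il21* (9.88 against 1.21 and 20.9 against 3.06 CPM) had the largest rises, both at low levels. Of 12 other negative regulators 3 were higher and 2 lower, beside the same shares of all genes. *Ptpn11*, which encodes the phosphatase SHP-2, was higher (219 against 127 and 162 against 94.8 CPM, adjusted p = 3.29e-04, edgeR), as was *Pias3* (log2 fold change 0.62), an inhibitor of STAT3. *Pias1* and *Pias2* were lower (log2 fold change -0.40 and -0.39), and the call of *Pias2* was lost with limma on log2(FPKM + 1) (adjusted p = 0.0554).

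Of 28 genes that STATs are known to regulate, 12 were higher and 8 lower, beside 14.6% and 12.8% of all genes. The largest rises were those of *Foxp3* (log2 fold change 3.95, 589 against 48.9 CPM in set 1 and 615 against 30.7 in set 2) and *Ikzf2* (3.69), which are also markers of regulatory T cells. The largest falls were those of *Hlx* (0.346 against 1.32 and 0.279 against 0.944 CPM) and *Il18rap* (14.4 against 26.7 and 14.7 against 31.5 CPM), which Th1 cells express. The call of *Hlx* was lost in DESeq2's Wald test (adjusted p = 0.0933) and with no filter. Targets thus moved in both directions.

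**Figure D4:**
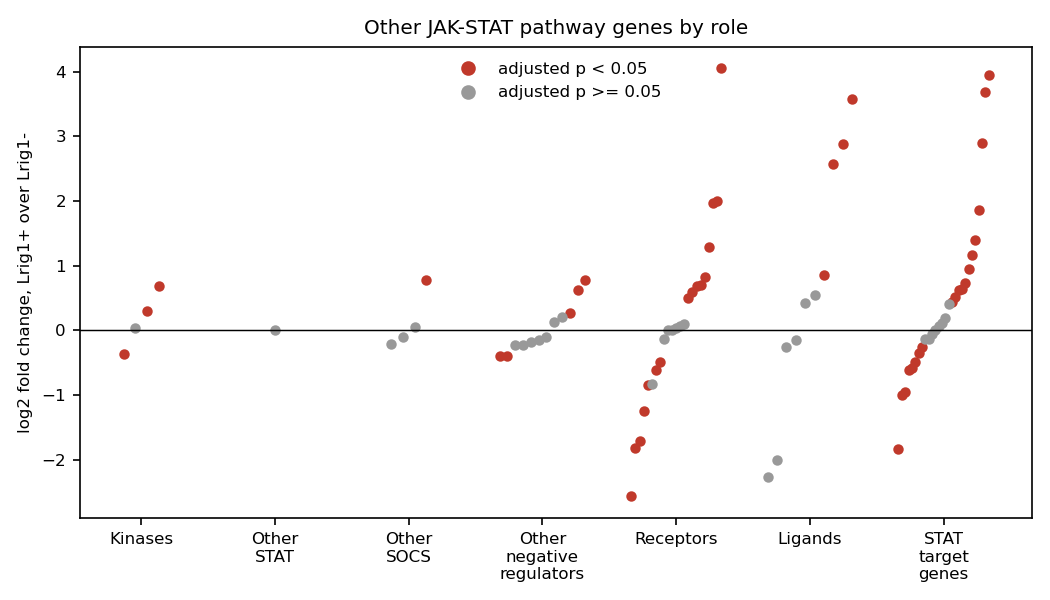
Log2 fold change (fit with the term for the set) of the tested pathway genes outside the 9, 1 dot per gene, grouped by role, and red where the adjusted p is under 0.05. Of 82 genes 31 were called higher and 18 lower, beside 14.6% and 12.8% of all genes. The receptors range from -2.57 for *Il12rb2* to 4.05 for *Il2ra*.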

How the data were processed

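RNA of 4 libraries was analysed. The authors extracted total RNA, made stranded mRNA libraries, and, by the submitters' processing notes, used Trimmomatic 0.38, HISAT2 2.1.0 and StringTie 2.1.3b, with GRCm38 and mm10 named as builds. The estimated counts per transcript were deposited as the authors made them, not normalized. The FPKM values were deposited as the authors' own scaling by transcript length and mapped fragments. Gene loci are the span of the listed transcripts. The 6 columns of per-sample values in a further table were not used, since their names give no Lrig1 group.

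Estimated counts were summed per gene symbol as whole numbers. In R 4.3.3 with edgeR 4.0.16, genes were kept by filterByExpr, normalized by TMM and tested with the quasi-likelihood test on group and set, at a Benjamini-Hochberg adjusted p under 0.05. Depth (44865070 to 59977951 counts) limits genes of few counts. Log2 ratios of a pair were taken from log2 CPM with prior.count at 2. Alternatives were no term for the set, DESeq2 1.42.0, DESeq2 size factors, other filters, limma 3.58.1 on log2(FPKM + 1) or log2(FPKM + 0.1), and leaving out each library. The procedure was run on simulated counts with the same spread set for every gene, so that run does not test how the calls hold in these data. The genes, the lists and the term for the set were chosen with earlier results of these data known. Beyond the 9 genes, those named were set by rule: receptors, kinases and STATs fixed by name, up to 2 called genes with the largest change per list and direction, and the 3 genes most alike in pattern to the members with the largest rise and fall. *Socs4*, *Socs6*, *Socs7* and *Jak2* were named after their values were seen, as the rest of their lists. Of the pathway lists, 1 gene is not reported here and is left out of their counts.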

Additional observations from a re-analysis of the deposited data

How the results depend on the processing

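No paired analysis was possible because the columns carry no replicate numbers, as far as pairing by those numbers goes. The main fit is itself paired by set, since its term for the set compares the libraries of the groups within each set. Without the term for the set the direction of all 9 genes was kept and all 5 calls were lost, at log2 fold changes of 2.07 for *Socs2*, 1.77 for *Cish*, 0.72 for *Socs1*, 0.51 for *Stat5a* and 0.33 for *Stat4*. That fit called 0 genes higher and 0 lower, in all, among the 9 and in the JAK-STAT list. With no filter on low counts 1304 genes were called higher and 820 lower, 10 of the JAK-STAT list lower, and *Stat4* (0.33) lost its call. Limma on log2(FPKM + 1) called 1016 lower. DESeq2's Wald test, with the term for the set, called 11.5% of genes higher, and the same 5 of the 9. *Stat6*, never called, turned to 0.0384 (log2(FPKM + 1)) and 0.0389 (log2(FPKM + 0.1)) in limma. *Stat2*, also never called, turned to -0.0214 with DESeq2's size factors, -0.0217 with its Wald test and -0.00363 with no filter, and *Il6st* to -0.0158 and -0.0157 with these size factors and that test.

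Leaving out 1 library allows no such term, and the step between the sets then enters the fit. Over these fits log2 fold changes ran from 1.71 to 2.61 for *Socs2*, 1.501 to 2.16 for *Cish*, 0.56 to 0.95 for *Socs1*, 0.33 to 0.68 for *Stat5a*, 0.10 to 0.58 for *Stat4*, 0.03 to 0.18 for *Stat3*, -0.11 to 0.42 for *Stat5b*, -0.10 to 0.13 for *Stat6* and -0.62 to 0.40 for *Socs3*. They turned sign for *Stat2* (-0.67 to 0.67), *Il2rg* (-0.58 to 0.36), *Il6ra* (-1.59 to 0.28), *Il6st* (-0.57 to 0.57), *Ifngr1* (-0.11 to 0.34), *Tyk2* (-0.31 to 0.94) and *Pias2* (-0.78 to 0.0384). They called 1 to 88 genes higher and 0 to 2 lower, 0 to 0 of the 9 genes, and 0 to 3 of the JAK-STAT list higher and 0 to 0 lower.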
